A study of Mus musculus with 6 samples.

Results

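The Sox family genes were examined for binding of Lsd1 by ChIP-seq in C2C12, a line of mouse myoblasts that can be turned to muscle or to fat. The members were Sox4, Sox5, Sox6, Sox7, Sox8, Sox9, Sox11, Sox12, Sox13 and Sox18, 10 of 26182 genes with a curated RefSeq transcript on mm10. A peak belonged to a member when its centre lay in the span of the gene or within 10 kb either side of it, which gave 53 of 95852 deposited peaks. Lsd1 was precipitated on day 1 of differentiation in 3 conditions, with 1 ChIP library and 1 input library each. Wild-type cells were kept in myogenic medium with horse serum, or in adipogenic medium with IBMX, indomethacin, dexamethasone, insulin, T3 and rosiglitazone. LSD1(OE) cells, a G418-selected lentiviral line with doxycycline-inducible Flag-tagged LSD1, were kept in adipogenic medium. The labels list no doxycycline for wild-type cells, so the level of LSD1, the line and the drug cannot be told apart. The antibody was raised against the C-terminus of Lsd1. No condition was replicated, so each difference given here is one between single libraries, and no test was made. Expression of the Sox genes, of muscle markers and of Lsd1 itself was not analysed here.

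Sox proteins are transcription factors with an HMG box, a domain that binds the minor groove of DNA and bends it. Related members form subgroups, of which SoxC (Sox4, Sox11, Sox12) acts in progenitor cells, SoxD (Sox5, Sox6, Sox13) lacks an activation domain of its own, SoxE (Sox8, Sox9) directs cartilage, testis and neural crest fates, and SoxF (Sox7, Sox18) acts in blood and lymph vessels. Sox9 with Sox5 and Sox6 drives chondrocyte genes, Sox6 represses slow fibre genes in muscle, and Sox8 has been described in muscle satellite cells. Lsd1 (Kdm1a) is a demethylase of histone lysines that works in both repressing and activating complexes.

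The 10 windows held 26 Lsd1 peaks in the myogenic library, 9 in the adipogenic library and 18 in the library of LSD1(OE) cells. The authors had called peaks over the matching input with a p limit of 1e-05, and the score of a peak is 10 times −log10 of its p. The filtered ChIP libraries held 46155625, 63915769 and 55193310 tags, and the whole lists 43426, 18893 and 33533 peaks, in the same order. When the strongest 18893 peaks of each list were used, the Sox windows held 9, 9 and 10. MACS had scaled the ChIP tags up to the deeper input. As an approximation of scores without it, each deposited score was divided by the scaling factor of its library. The factors were 1.9, 1.28 and 1.82 in the myogenic, adipogenic and LSD1(OE) libraries. Peaks were not called again, so the scores MACS would give are not known. Later results without scaling, or with tags not scaled up, use these divided scores. The divided score was under 50, the value at the cut-off, for 15 of the 26 myogenic peaks (57.7%, against 41.9% of all myogenic peaks). The same held for 0 of the 9 adipogenic peaks (all peaks, 16.2%) and for 8 of the 18 LSD1(OE) peaks (44.4%, against 40.5%). By this approximation a large share of the myogenic and LSD1(OE) Sox peaks was near the limit of calling. Per 100 kb of window the median over the members was 5.67, 3.71 and 4.34 peaks, beside 2.38, 0 and 1.17 over all genes. In the myogenic library members ranged from 0 at Sox7 and Sox13 to 32.3 at Sox8, a short gene. Some of the Sox8 peaks were nearest to another gene. The longest members, Sox5 and Sox6, had 1.75 and 0.17, below the median of all genes.

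At least 1 peak was present in 8 of 10 windows in the myogenic library, 6 of 10 in the adipogenic and 8 of 10 in the LSD1(OE) library. Over all genes the shares were 62.5, 41.2 and 53.9%. With only peaks nearest to the TSS of a member, an alternative chosen after seeing the data, the member counts were 8, 5 and 6. The members were chosen with results of these data known, so each comparison of members with all genes, above and below, is a description only. A promoter peak, centred within 2000 bp of a transcription start site (TSS), was found at 6, 5 and 5 members, against 46.8, 27 and 37.3% of all genes. Sox4, Sox11, Sox12 and Sox9 had a promoter peak in all 3 libraries, 4 of 10 members against 23.5% of all genes. Sox5, Sox7 and Sox18 had no promoter peak in any library, 3 of 10 against 49.7%. The remaining members differed by library, with Sox8 in both wild-type libraries, Sox6 in myogenic medium and Sox13 in LSD1(OE) cells.

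**Figure D1:**
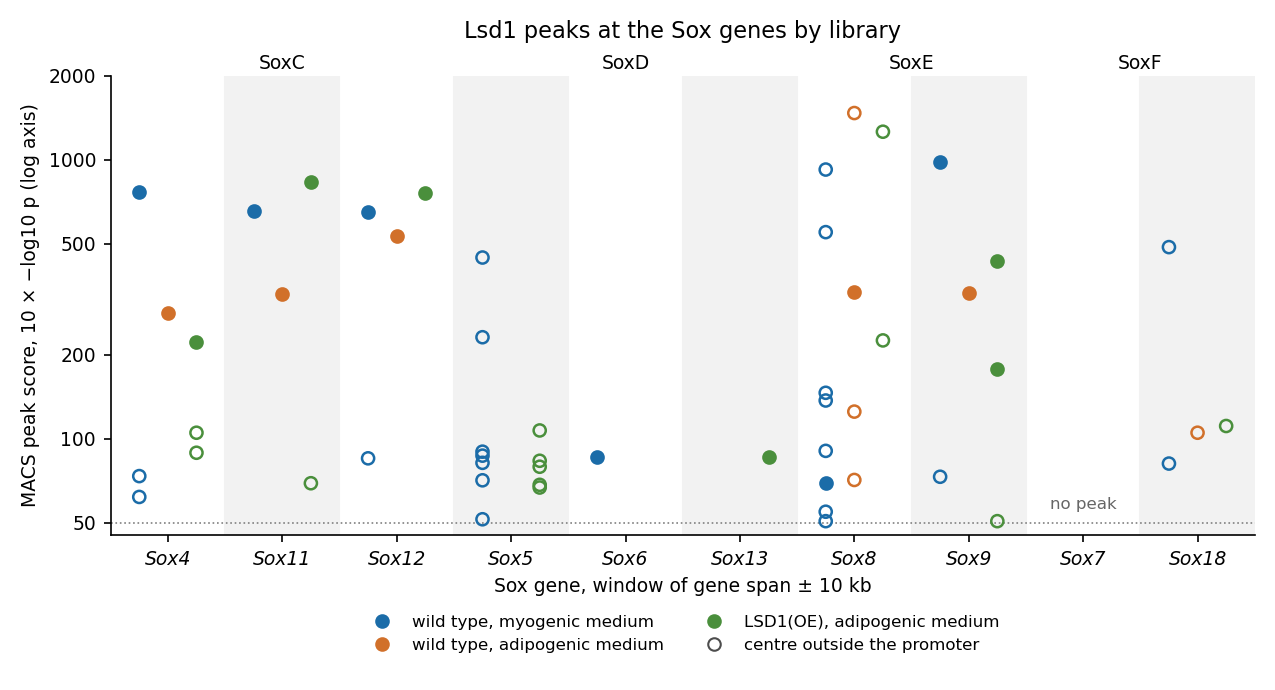
MACS score of each Lsd1 peak (log axis) in the windows of the 10 Sox genes, 1 point per peak, coloured by library. Filled points are centred within 2000 bp of a TSS of the gene and open points are not. The dotted line at 50 is the cut-off. The highest point is the adipogenic peak upstream of Sox8, with a score of 1470, and Sox7 has no point.

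All 3 SoxC genes carried Lsd1 over the promoter in all 3 libraries. Each is a short gene with 1 TSS. The sequence at a summit upstream of each TSS is shown because these regions had a peak in every library. The summit is that of the adipogenic library for Sox4, the myogenic for Sox11 and the LSD1(OE) for Sox12, since stretches in exons were left out. Capitals mark CG dinucleotides.
Sox4 (chr13:28953881-28954031, plus strand): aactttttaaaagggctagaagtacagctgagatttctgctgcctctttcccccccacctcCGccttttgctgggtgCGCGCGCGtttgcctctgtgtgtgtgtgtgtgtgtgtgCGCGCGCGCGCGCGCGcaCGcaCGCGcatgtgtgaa
Sox11 (chr12:27342942-27343092, plus strand): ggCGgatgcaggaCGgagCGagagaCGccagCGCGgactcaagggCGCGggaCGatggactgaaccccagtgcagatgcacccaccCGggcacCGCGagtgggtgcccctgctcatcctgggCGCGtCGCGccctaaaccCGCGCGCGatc
Sox12 (chr2:152398773-152398923, plus strand): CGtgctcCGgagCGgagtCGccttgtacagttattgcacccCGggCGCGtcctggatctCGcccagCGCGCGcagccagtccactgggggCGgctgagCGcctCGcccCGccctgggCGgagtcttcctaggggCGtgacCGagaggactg
These mm10 stretches, from the RefSeq assembly, held 16, 20 and 18 CG dinucleotides in 151 bases. Much of the Sox4 count lay in an alternating GT and CG run, and the CpG ratio (observed over expected CG) of the 201 bp at the strongest Sox4 summit, the myogenic one, was 0.46. The Sox4 stretch also held the letters CAGCTG, a match to the E-box motif. In the Sox11 and Sox12 stretches no match to the motifs given below was found.

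Sox4 (RefSeq gene 20677, chromosome 13, 28948919 to 28953699, minus strand) encodes a factor of progenitor survival and differentiation. Its promoter peak held 194 tags with a score of 769 in myogenic medium (28951693 to 28954358), centred 674 bp downstream of the TSS in the 5' UTR. In adipogenic medium it held 135 tags with a score of 282 (28952882 to 28954365), centred 76 bp downstream. In LSD1(OE) cells it held 85 tags with a score of 222 (28953070 to 28954241), centred 44 bp downstream. The myogenic peak was the longest, and its extra length lay over the gene body. Away from the promoter the libraries shared no peak. Myogenic medium added 2 peaks upstream, 4717 and 5902 bp from the TSS with scores of 73.4 and 61.8. LSD1(OE) cells added 2 downstream, at 2910 bp in the 3' UTR (score 89.0) and at 6394 bp beyond the gene (score 105).

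Sox11 (gene 20666, chromosome 12, 27334268 to 27342718, minus strand) encodes a regulator of neuronal progenitors. In myogenic medium its promoter peak (27341002 to 27344013) held 205 tags with a score of 653. The adipogenic peak (27340921 to 27343342) held 197 tags with a score of 329. The LSD1(OE) peak (27340855 to 27343305) held 225 tags with a score of 831, the highest of the 3. The centre lay 211 bp downstream of the TSS in myogenic medium and 587 and 638 bp downstream in the adipogenic and LSD1(OE) libraries, where it fell in the coding exon. A further LSD1(OE) peak was centred 3850 bp downstream in the 3' UTR, with 38 tags and a score of 69.2.

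Sox12 (gene 20667, chromosome 2, 152393611 to 152398046, minus strand) encodes the weakest activator of the subgroup. Its promoter peak was centred 109, 81 and 49 bp downstream of the TSS in the myogenic, adipogenic and LSD1(OE) libraries, in the 5' UTR each time. It held 189 tags with a score of 649 in myogenic medium (152396585 to 152399290). It held 277 tags with a score of 534 in adipogenic medium (152396413 to 152399518) and, in LSD1(OE) cells, 236 tags with a score of 761 (152396594 to 152399400). Among SoxC promoter peaks of the adipogenic library this one had the highest score. A myogenic peak 8272 bp upstream, with 45 tags and a score of 85.0, had no counterpart.

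**Figure D2:**
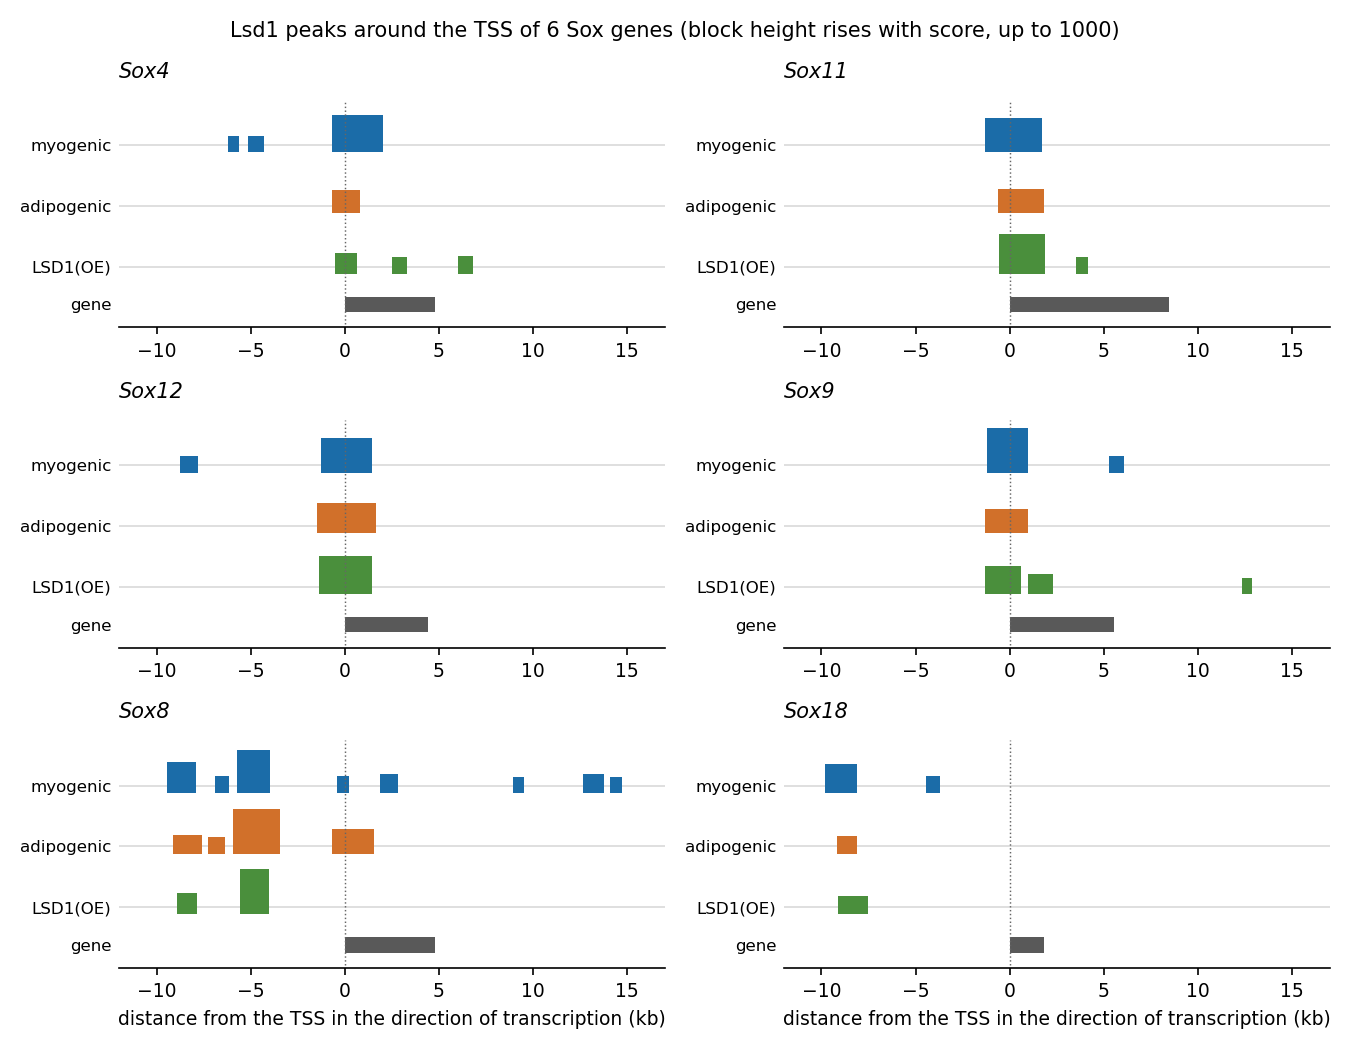
Lsd1 peaks around the TSS (dotted line, 0 kb) of Sox4, Sox11, Sox12, Sox9, Sox8 and Sox18, as blocks in 1 row per library, with the gene in grey. The x axis is distance in kb in the direction of transcription, and block height rises with score up to 1000. Blocks cover the TSS in all 3 rows for the first 4 genes, in the myogenic and adipogenic rows for Sox8, and in no row for Sox18.

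The SoxE genes held 10 myogenic, 5 adipogenic and 5 LSD1(OE) peaks, among them the strongest of the family. Sox9 (gene 20682, chromosome 11, 112782210 to 112787757, plus strand) encodes the master regulator of cartilage. In myogenic medium its promoter peak (112781008 to 112783161) held 199 tags with a score of 982, the highest promoter score of any member in any library. In adipogenic medium the peak (112780893 to 112783188) held 191 tags with a score of 333. Lsd1 was called in LSD1(OE) cells as a pair of peaks, one of 148 tags (score 432, 112780913 to 112782801) and one of 87 tags (score 178, 112783167 to 112784517). The centre of the first lay 353 bp upstream of the TSS, that of the other 1632 bp downstream in a coding exon. The wild-type peaks were centred 126 and 170 bp upstream. Sox9 also had a myogenic peak just beyond the gene end (score 73.0) and an LSD1(OE) peak in an intron of the neighbouring Gm11681 (score 50.6).

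Sox8 (gene 20681, chromosome 17, 25565893 to 25570686, minus strand) held more regions than any other short member, 8 in all. Its strongest region was not at the promoter but 4849, 4679 and 4790 bp upstream of the TSS, in the myogenic, adipogenic and LSD1(OE) libraries. The myogenic peak (25574636 to 25576434) held 218 tags with a score of 922. The adipogenic peak (25574103 to 25576628) held 375 tags with a score of 1470. The LSD1(OE) peak (25574723 to 25576229) held 221 tags with a score of 1260. These scores stood at percentiles 96.3, 99.8 and 98.3 of all peaks of their libraries. The region lies between genes, 3639 to 3809 bp from the TSS of Lmf1, which encodes a lipase maturation factor, so the nearest gene is not Sox8. The sequence at its summit is shown beside that of the Sox9 promoter, since both regions were bound in all 3 libraries but differ in CpG content.
Sox8 upstream region (chr17:25575356-25575556, plus strand): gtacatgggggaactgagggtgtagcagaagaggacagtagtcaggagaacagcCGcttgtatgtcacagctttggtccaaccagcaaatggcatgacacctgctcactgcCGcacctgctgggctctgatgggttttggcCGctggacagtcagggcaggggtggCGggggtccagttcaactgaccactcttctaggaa
Sox9 promoter (chr11:112781541-112781691, plus strand): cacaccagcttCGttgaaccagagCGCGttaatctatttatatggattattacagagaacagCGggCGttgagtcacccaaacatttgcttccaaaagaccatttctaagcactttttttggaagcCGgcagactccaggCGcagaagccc
Capitals again mark CG. The Sox8 region held 4 in 201 bases and the Sox9 stretch 7 in 151 bases. The Sox8 summit is that of the adipogenic library and the Sox9 summit that of LSD1(OE) cells. The Sox9 stretch also held the letters TGAGTCA, a match to the AP-1 motif. The stretch lies inside the Sox9 promoter peaks of all 3 libraries. No AP-1 match was found within 100 bp of the myogenic or adipogenic summit of that promoter.

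At the Sox8 promoter itself the libraries differed. The adipogenic peak (25569132 to 25571349) held 187 tags with a score of 335. The myogenic peak (25570437 to 25571080) held 33 tags with a score of 69.3, and its nearest TSS, at 53 bp, was that of Cerox1, a noncoding RNA gene. LSD1(OE) cells had no peak there. The wild-type adipogenic library, which had the fewest peaks of the 3, thus gave the strongest peak at this promoter. A further region at the TSS of Lmf1, inside the Sox8 window, held 129 tags (score 550), 128 tags (score 125) and 87 tags (score 225) in the myogenic, adipogenic and LSD1(OE) libraries. The other regions were weaker, with 1 shared by both wild-type libraries and 4 found in myogenic medium only, at scores of 50.6 to 146.

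Unlike the SoxC and SoxE genes, no SoxD gene had a peak in its window in wild-type adipogenic medium, where 41.2% of all genes had one. With no adipogenic peak in these windows, none of the 13 SoxD regions, 11 of them at Sox5, was one of all 3 libraries. Sox7, a SoxF gene, had no peak in any library. The SoxD genes held 8 myogenic and 6 LSD1(OE) peaks. Sox5 (gene 20678, chromosome 6, 143828425 to 144209568, minus strand, 381 kb, 2 TSSs) encodes a partner of Sox9 in cartilage. It carried 7 myogenic peaks, 0 adipogenic peaks and 5 LSD1(OE) peaks, all in introns, and the nearest adipogenic peak lay 306440 bp from a Sox5 TSS. The strongest myogenic peak (143915698 to 143917357) held 122 tags with a score of 446. The next (144061720 to 144062989) held 80 tags with a score of 231. The other myogenic peaks scored 51.4 to 89.8. In LSD1(OE) cells the strongest peak (143889628 to 143890496) held 54 tags with a score of 107, and the others scored 66.8 to 83.3. Only 1 of 11 Sox5 regions had peaks in both libraries, with 37 myogenic and 53 LSD1(OE) tags. The other 4 LSD1(OE) peaks lay at places in the introns with no myogenic peak. The summit sequences of the strongest regions found in 1 library are shown for comparison with the promoters above, with CG in capitals.
Sox5 intron, myogenic only (chr6:143916810-143916960, plus strand): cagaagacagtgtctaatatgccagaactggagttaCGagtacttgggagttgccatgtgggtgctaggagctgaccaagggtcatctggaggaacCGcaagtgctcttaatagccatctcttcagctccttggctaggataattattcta
Sox5 intron, myogenic only (chr6:144062497-144062647, plus strand): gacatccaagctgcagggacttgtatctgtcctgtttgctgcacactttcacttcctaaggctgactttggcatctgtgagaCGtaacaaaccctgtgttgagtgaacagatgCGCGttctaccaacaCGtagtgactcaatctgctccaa
Sox5 intron, LSD1(OE) only (chr6:143889938-143890088, plus strand): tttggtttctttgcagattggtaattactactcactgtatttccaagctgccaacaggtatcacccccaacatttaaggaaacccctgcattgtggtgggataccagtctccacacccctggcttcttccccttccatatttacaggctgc
They held 2, 4 and 0 CG in 151 bases. The second contained the AP-1 letters TGACTCA, and the last contained CATTGT, the reverse complement of a Sox motif.

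Sox6 (gene 20679, chromosome 7, 115470872 to 116038744, minus strand) spans 568 kb with 6 TSSs and is the longest member. Its window held a single peak, in myogenic medium (116039945 to 116040548), 1502 bp upstream of the first TSS, with 34 tags and a score of 86.2. The nearest peaks of the adipogenic and LSD1(OE) libraries lay 268864 and 152645 bp from a Sox6 TSS. Sox13 (gene 20668, chromosome 1, 133382300 to 133424212, minus strand) encodes a factor known from T cells. Its window held a single peak too, in LSD1(OE) cells (133423620 to 133424455), 175 bp downstream of the TSS in the 5' UTR, with 49 tags and a score of 86.2. Outside the window, the nearest adipogenic peak lay 47236 bp upstream of the Sox13 TSS, and no TSS was nearer to it. That peak held 153 tags with a score of 208. Both promoter peaks, of Sox6 and of Sox13, were weak. Neither was kept at an FDR under 0.1%, at a score of at least 100, with equal peak numbers or without scaling of tags, and the same was true of the myogenic Sox8 promoter peak. With equal peak numbers Sox5 kept 2 myogenic and 1 LSD1(OE) peaks. The absence of a peak is not a measured 0, since the weakest peaks held 27, 35 and 30 tags in the myogenic, adipogenic and LSD1(OE) libraries.

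**Figure D3:**
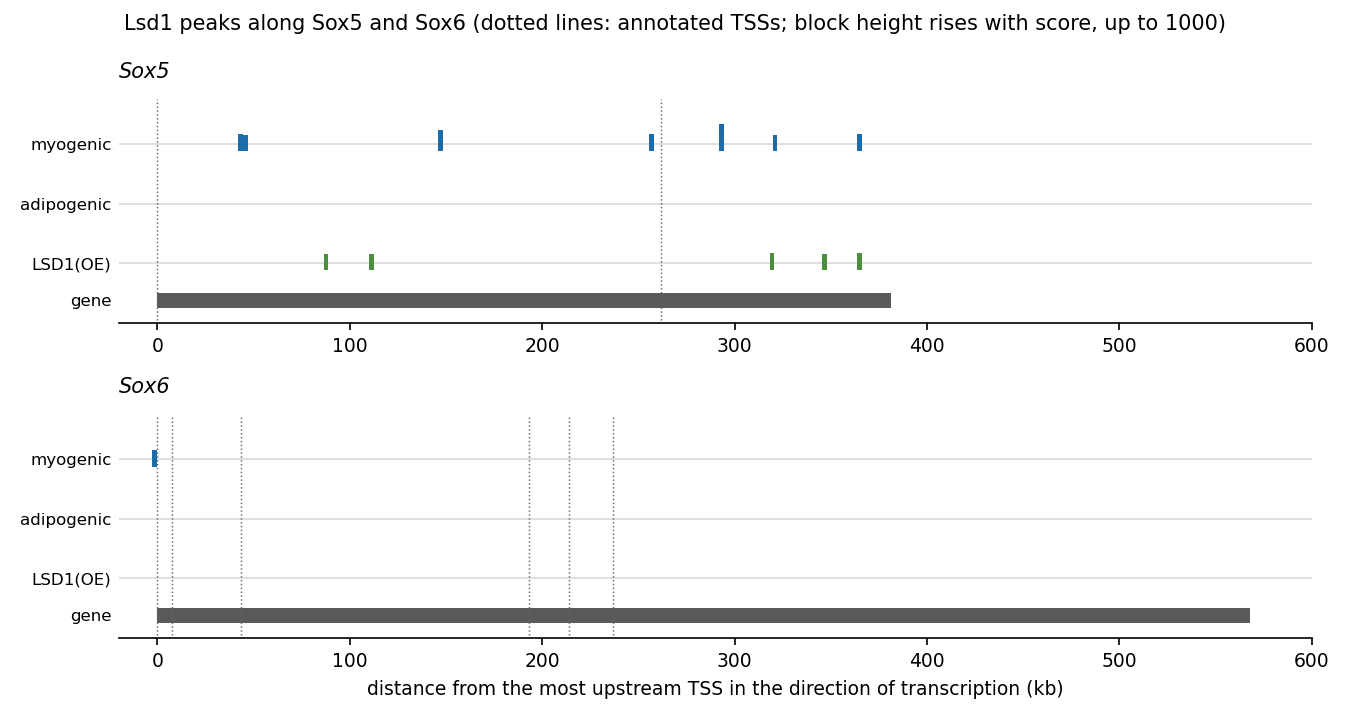
Lsd1 peaks along Sox5 and Sox6 as blocks in 1 row per library (drawn wider than to scale so that they can be seen), with the gene in grey and annotated TSSs as dotted lines. The x axis is distance in kb from the most upstream TSS, and block height rises with score up to 1000. Sox5 carries 7 myogenic and 5 LSD1(OE) blocks and no adipogenic block, and Sox6 carries a single myogenic block at its first TSS.

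The SoxF genes, regulators of vessel formation, had no promoter peak in any library. Sox7 (gene 20680, chromosome 14, 63943706 to 63950732, plus strand) had no peak in its window in any library, and the nearest peaks lay 18915, 39669 and 19220 bp downstream of its TSS in the myogenic, adipogenic and LSD1(OE) libraries. Sox18 (gene 20672, chromosome 2, 181669837 to 181671640, minus strand) had a myogenic peak 4095 bp upstream, with 39 tags and a score of 81.4. A region bound in all 3 libraries, with 128, 74 and 97 tags and scores of 486, 105 and 111, lay inside the Sox18 window but at the TSS of Tcea2, a transcription elongation factor gene. Of all peaks in the Sox windows, 5 myogenic, 4 adipogenic and 4 LSD1(OE) peaks were nearest to the TSS of another gene.

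Overlapping peaks of the 3 lists merged to 35 Sox regions, of 56729 regions in all. Of these 16 were myogenic only (45.7%, against 35.9% of all regions), 9 were LSD1(OE) only (25.7%, against 20.8%) and 7 were in all 3 libraries (against 20.6%, while 7 of 35 is 20%). Both wild-type libraries shared 2 regions without LSD1(OE) (5.71%, against 4.38%), and 1 was shared by myogenic and LSD1(OE) cells (2.86%, against 12.2%). No Sox region was adipogenic only (3.7% of all regions) or shared by the adipogenic and LSD1(OE) libraries alone (2.45%), patterns that were rare over all regions too. Put by peaks, 9 of 26 myogenic Sox peaks overlapped an adipogenic peak (35.4% of all myogenic peaks did). For LSD1(OE) the count was 8 of 26 (46.5% of all). All 9 adipogenic Sox peaks overlapped a myogenic peak (80.5% of all adipogenic peaks), and 7 of 9 an LSD1(OE) peak (74.5%). The regions kept in all 3 libraries were the promoters of Sox4, Sox11, Sox12 and Sox9, the upstream region of Sox8, and the TSSs of Lmf1 and Tcea2.

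At shared regions the libraries were compared by tag density, the ChIP tags per kb of called peak per 1000000 filtered ChIP tags. Input was not subtracted, and each library was measured over its own called peak. The lowest density of any called peak was 0.928, 0.863 and 0.894 in the myogenic, adipogenic and LSD1(OE) libraries. Ratios between peaks near these values are therefore limited by calling. Intervals are 95% exact binomial (Clopper-Pearson) intervals of the tag counts and cover counting error only. Over all shared peaks the median log2 ratio was −0.33 for adipogenic over myogenic, −0.19 for LSD1(OE) over myogenic and 0.13 for LSD1(OE) over adipogenic. The Sox medians were −0.18 over 9 regions, −0.21 over 8 and 0.13 over 7. The ratio was below 0 at 8 of 9 Sox regions for adipogenic over myogenic (88.6% of all shared peaks), at 5 of 8 for LSD1(OE) over myogenic (74.8%) and at 2 of 7 for LSD1(OE) over adipogenic (28.7%).

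Sox9 was the 1 member region of 9 whose density was at least 1.5 times lower in adipogenic than in myogenic medium, which 17.7% of all shared peaks were. Its density was 2.00, 1.30 and 1.42 in the myogenic, adipogenic and LSD1(OE) libraries. The log2 ratio was −0.62 (−0.92 to −0.33) for adipogenic over myogenic and −0.50 (−0.81 to −0.18) for LSD1(OE) over myogenic, using the stronger of the LSD1(OE) peaks. Relative to the median of all shared peaks these were −0.29 and −0.31, at percentile 14.8 in both comparisons. At 2 other regions the interval for adipogenic over myogenic also lay below 0, that of the Tcea2 TSS in the Sox18 window at −0.53 (−0.96 to −0.11) and that of the Lmf1 TSS in the Sox8 window at −0.43 (−0.79 to −0.06). Relative to the median of all shared peaks these 2 ratios were −0.20 and −0.10, at percentiles 23.4 and 36. No Sox region was at least 1.5 times higher in adipogenic medium (0.0503% of all).

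For LSD1(OE) against myogenic, 1 of 8 Sox regions was at least 1.5 times lower (8.98% of all) and 0 were as much higher (0.511% of all). The 1 region was that at the Tcea2 TSS in the Sox18 window, with densities of 1.64 and 1.07 and a log2 ratio of −0.61 (−1.0 to −0.22). For LSD1(OE) against adipogenic, 0 of 7 Sox regions were at least 1.5 times lower (0.0859% of all) or higher (2.95% of all). Within that range Sox11 had a higher density in LSD1(OE) cells, 1.66 against 1.27, a log2 ratio of 0.39 (0.10 to 0.67), or 0.26 relative to all shared peaks. The intervals of the other 6 regions in that comparison included 0.

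The promoter of Sox8 was the 1 region of 9 with a higher density in adipogenic than in myogenic medium, 1.32 against 1.11. Its log2 ratio of 0.25 (−0.29 to 0.83) was at percentile 98.5 of all shared peaks, but the interval includes 0 because the myogenic peak held 33 tags. At the upstream Sox8 region the densities of 2.63, 2.32 and 2.66 in the myogenic, adipogenic and LSD1(OE) libraries gave 3 ratios whose intervals all included 0. The same was true of Sox4 (1.58, 1.42 and 1.31) and of Sox12 (1.51, 1.4 and 1.52). For Sox4 the ratio of LSD1(OE) to myogenic was −0.26 (−0.65 to 0.11). The Sox4 score was highest and the peak longest in the myogenic library, while no Sox4 density ratio lay outside counting error. Divided by the scaling factor of each library, the Sox4 scores were 406, 221 and 122 in the myogenic, adipogenic and LSD1(OE) libraries. What set the score was not tested.

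**Figure D4:**
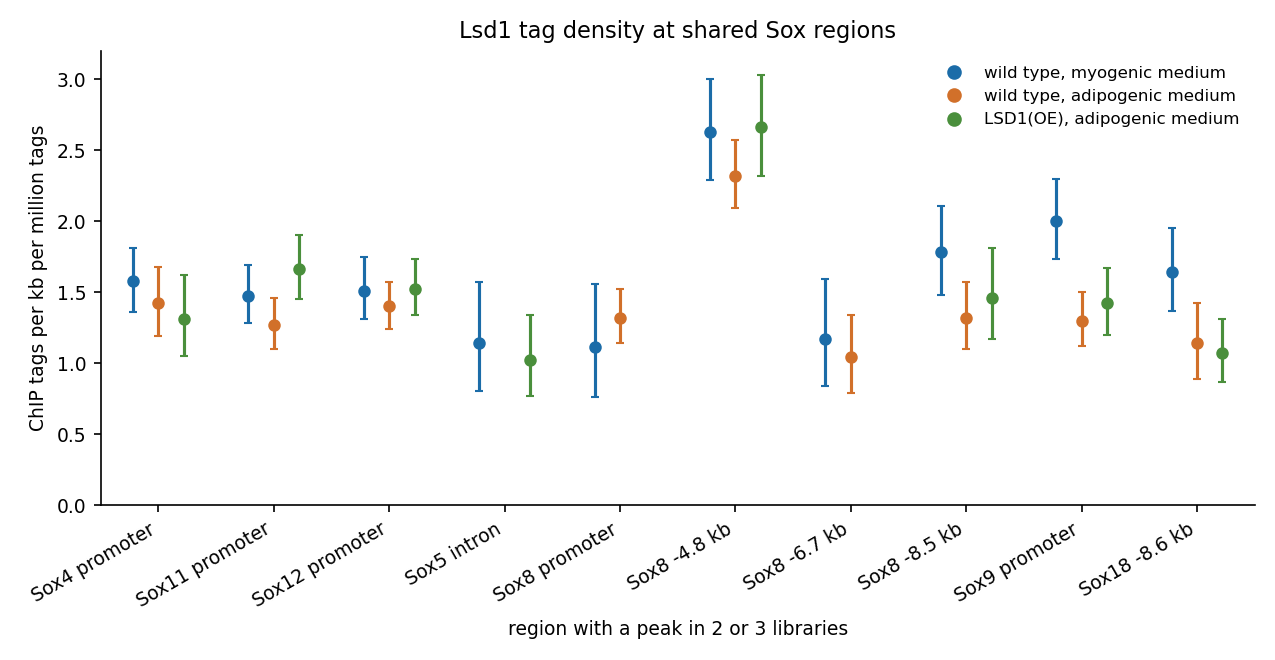
Tag density (ChIP tags per kb of called peak per 1000000 filtered tags) at the 10 Sox regions with a peak in 2 or 3 libraries, 1 point per library with 95% exact Poisson intervals of the tag count. The Sox8 region 4.8 kb upstream has the highest points, from 2.32 to 2.66, and the myogenic point of Sox9 at 2.00 stands above its adipogenic point at 1.30.

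Members also differed in the CpG content of their promoters. Over all genes, promoter peaks were more frequent at CpG-rich promoters, as given below. A choice of members made with results of these data known may therefore not be independent of CpG content. The CpG ratio (observed over expected CG within 500 bp of the TSS, highest TSS of a gene) was 0.99 at Sox12, 0.96 at Sox11 and 0.79 at Sox4 and Sox9, the 4 genes with a promoter peak in every library. It was 0.37 at Sox5, which had no promoter peak, 0.52 at Sox6 and 0.69 at Sox8. Sox7, Sox18 and Sox13 nevertheless had ratios of 0.78, 0.77 and 0.81, so a CpG-rich promoter was present at members with and without Lsd1. Over all genes with a ratio of 0.6 or more, 79.6, 48.1 and 64.3% had a promoter peak in the myogenic, adipogenic and LSD1(OE) libraries. Below 0.6 the shares were 19.6, 9.54 and 15%. Sox7, Sox18 and Sox13 were therefore among the minority of CpG-rich genes with no myogenic promoter peak.

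**Figure D5:**
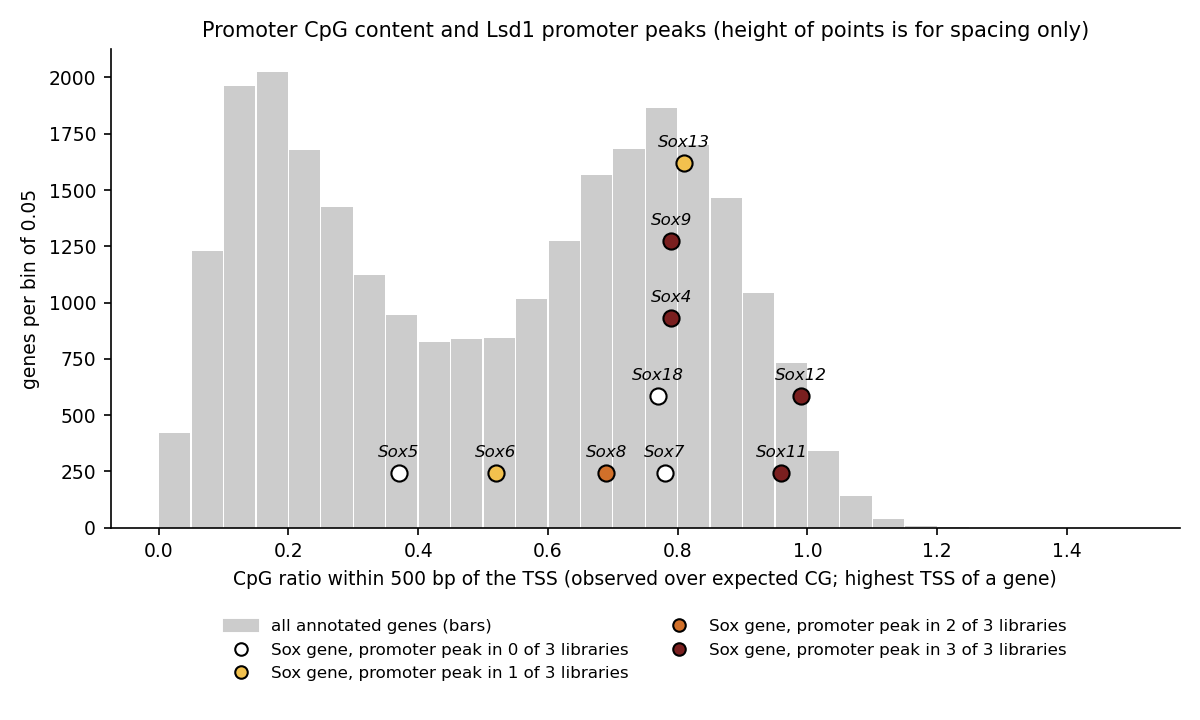
Number of genes (bars, bins of 0.05) by CpG ratio within 500 bp of the TSS, with the 10 Sox genes as points coloured by the number of libraries with a promoter peak. The height of points has no meaning. The points for 3 libraries lie between 0.79 and 0.99, and Sox7 and Sox18, with none, lie at 0.78 and 0.77.

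The CpG ratio was also taken in 201 bp at the summit of the strongest peak of each region. The 7 Sox regions bound in all 3 libraries had a median of 0.85, with a range of 0.25 to 1.18, against 0.40 for all such regions. Of the 7, all but the upstream Sox8 region lie at a TSS, which was not matched among all regions. The 25 Sox regions of 1 library had a median of 0.42, against 0.19. The lowest values among the 7 were those of the upstream Sox8 region, 0.25, and of Sox4, 0.46. At the adipogenic and LSD1(OE) summits of the Sox4 promoter, which had lower scores, the ratio was 1.1 and 1.36. Motif letters were searched on both strands within 100 bp of each summit. A Sox motif, ACAATG or ACAAAG, was found at 8 of 26 myogenic Sox peaks (30.8%, against 20.7% of all myogenic peaks), 2 of 9 adipogenic peaks (22.2%, against 19.5%) and 4 of 18 LSD1(OE) peaks (22.2%, against 20%). The E-box CAGCTG, a letter string that muscle bHLH factors bind, was found at 6 of 26, 2 of 9 and 4 of 18 (19.3, 22 and 19.2% of all peaks). The AP-1 letters TGANTCA were found at 3, 0 and 2 peaks, the TEAD letters GGAATG at 2, 1 and 2, and the steroid receptor letters ACANNNTGT at 2, 0 and 1. For these 3 motifs the shares of all peaks were 13.6, 14.7 and 13.1%, then 12.3, 11.6 and 11.5%, then 5.03, 4.83 and 5.23%. These counts are a description and were not tested, and a match is not a binding site.

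Other Sox genes were counted in the same way, though members and lists were chosen with results of these data known, so no contrast between them is drawn. Of 10 Sox genes outside the members 4, 1 and 4 had a peak in their window in the myogenic, adipogenic and LSD1(OE) libraries, against 62.5, 41.2 and 53.9% of all genes. A promoter peak was found at Sox2 alone, a pluripotency factor, with 41 tags and a score of 94.9 in myogenic medium and 45 tags and a score of 83.8 in LSD1(OE) cells. Of 8 cartilage genes that Sox9 activates, 3, 2 and 3 had a peak in their window. Promoter peaks were found at Col11a2, a collagen gene, in myogenic medium (59 tags, score 157). Comp, which encodes a cartilage matrix protein, had one in myogenic medium (28 tags, score 52.4) and in LSD1(OE) cells (54 tags, score 93.4). No gene of either list had an adipogenic promoter peak, against 27% of all genes.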

How the data were processed

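Lsd1 ChIP and input libraries were sequenced as 50 bp single reads from C2C12 cells on day 1 of differentiation, 1 pair per condition. The authors mapped reads to mm10 (the study's methods name Bowtie, the submitters' processing notes Bowtie2) and, per the file headers, called peaks for each library with MACS. The headers name version 1.4.2 and the submitters' processing notes 1.41. The deposited tag count of a peak is not normalized. The score, as deposited, is the −log10 of a p-value multiplied by 10, the deposited fold enrichment is a ratio over local background and was not compared between libraries, and the deposited FDR, in percent, was at most 0.37, 0.73 and 0.44 in the myogenic, adipogenic and LSD1(OE) lists.

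Peaks were assigned by their centre to 26182 genes with 31647 curated RefSeq TSSs on GRCm38, and to promoters of 2000 bp either side of a TSS, the window of the study's methods. Regions are peaks that overlap by at least 1 bp, and densities used the strongest peak of a library in a region. Every member is named, with its strongest peak in each library, its promoter peaks and its regions shared by all 3 libraries. Sequences were taken outside annotated exons. The members and lists were chosen with earlier results of these data known. Assignment, merging and intervals were tested on simulated data. Alternatives were other thresholds, windows, annotations and density scales. Python 3.11.15, pandas 2.3.3, SciPy 1.17.1 and pysam 0.24.0 were used.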

Additional observations from a re-analysis of the deposited data

How the results depend on the processing

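Of 101 alternatives over 16 results, 78 stayed within 1.5 times the count or within counting error, 21 moved further and 2 changed sign. The numbers of Sox genes with a promoter peak, and the 7 regions found in all 3 libraries, stayed within 1.5 times under each alternative tried. The count of 26 myogenic Sox peaks was 11 at an FDR under 0.1%, 11 at a score of at least 100, 9 with equal peak numbers, 11 with tags not scaled up, 11 with no flank and 45 with a flank of 50 kb. The 9 adipogenic peaks became 4 with no flank, 18 with 50 kb and 5 when the nearest TSS had to be that of a Sox gene, an alternative chosen after seeing the data. The 18 LSD1(OE) peaks became 7 at the stricter FDR, 10 at the higher score, with equal numbers and without scaling, and 30 with 50 kb. Genes with a peak were 5 in place of 8 in myogenic medium with no flank, and 5 in place of 8 in LSD1(OE) cells at the stricter FDR. In the adipogenic library they were 7 in place of 6 with predicted transcripts added, and 8 with a flank of 50 kb. The density ratios depended on the scale. Relative to the median of all shared peaks, the median log2 ratios were 0.15 (adipogenic over myogenic), −0.02 (LSD1(OE) over myogenic) and 0.00 (LSD1(OE) over adipogenic). Without division by length they were −0.48, −0.45 and −0.16. The myogenic count of Sox motif letters was 5 within 50 bp of the summit. No replicate could be left out, and no paired analysis was possible because each condition has 1 ChIP library and no test was made. Depth limits what is seen to peaks of at least 27, 35 and 30 tags in the myogenic, adipogenic and LSD1(OE) libraries.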
